A study of Mus musculus with 6 samples.

Results

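The nuclear factor I (NFI) family of mouse has 4 genes, Nfia, Nfib, Nfic and Nfix, and all 4 were found by symbol and Ensembl identifier among the 55401 genes of a count table from C3H10T1/2 cells, a mesenchymal line from mouse embryo. The table covered 3 lines made from these cells with short hairpin RNAs: shControl with a control hairpin, labelled WT, shNFIB with a hairpin against Nfib, labelled NFIB knockdown, and shMLL1, labelled MLL1 knockdown, with one that targets Kmt2a, which encodes the histone methyltransferase MLL1. Each line was sequenced untreated at day 0 and after 7 days in osteogenic medium, in which dexamethasone was at 0.1 µM, β-glycerophosphate at 20 mM and ascorbic acid 2-phosphate at 100 µg/ml. All 3 lines carried a stably introduced hairpin, each knockdown was represented by 1 line, and each of the 6 conditions by 1 library. The study asked how NFIB and MLL1 act in osteogenic differentiation, so the comparisons here ask how the targeted gene and its 3 relatives differed with the knockdown and with the day.

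NFI proteins are transcription factors that bind DNA as dimers of the same or of different members, through a conserved amino-terminal domain that recognises the palindrome formed by TTGGC and its reverse complement. The C-terminal part differs more between members and can activate or repress transcription. The family is known for roles in the developing brain, in muscle, in tooth and bone, in fat cell formation and in hair follicle stem cells. In mesenchymal cells NFIB is known to act together with MLL1, which places the activating trimethyl mark on lysine 4 of histone H3.

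Coordinates are those of GRCm38 in the GENCODE M21 annotation. Nfib (ENSMUSG00000008575) spans chr4:82290173-82705750 on the minus strand, 12 annotated transcripts of which 7 are coding, with 14957 bases of exon in all. Nfia (ENSMUSG00000028565) lies on the same chromosome at chr4:97772734-98118874 on the plus strand, with 8 transcripts, 7 of them coding, and 10891 bases of exon. Nfic (ENSMUSG00000055053) spans chr10:81396186-81455635 on the minus strand, with 7 transcripts, 6 of them coding, and 6630 bases of exon. Nfix (ENSMUSG00000001911) spans chr8:84699876-84800344 on the minus strand, with 8 transcripts, 5 of them coding, and 7351 bases of exon.

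The 4 genes are similar enough that reads could in principle be shared, so their coding sequences were compared. Over the longest complete coding sequence of each gene, identity between members ranged from 63.9% for Nfib and Nfic to 70.7% for Nfia and Nfix. The most conserved stretch of 60 bases that lies within 1 exon of every member is in exon 2, in the part that encodes the amino-terminal domain. It is shown because it is where the members are most alike. All 4 members share 48 of its 60 positions, and the 12 positions at which they differ are in capitals.
Nfia, chr4:97783134-97783193, plus strand: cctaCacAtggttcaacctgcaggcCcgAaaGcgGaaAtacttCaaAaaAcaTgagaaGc
Nfib, chr4:82498658-82498717, minus strand: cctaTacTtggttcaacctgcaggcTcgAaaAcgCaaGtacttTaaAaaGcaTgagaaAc
Nfic, chr10:81420687-81420746, minus strand: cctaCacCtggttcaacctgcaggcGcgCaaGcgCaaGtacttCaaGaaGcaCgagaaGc
Nfix, chr8:84772204-84772263, minus strand: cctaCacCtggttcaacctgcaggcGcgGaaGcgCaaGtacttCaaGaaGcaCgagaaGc

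Nfic and Nfix were the closest pair over a read length. Their most alike 100 coding bases within 1 exon matched at 95 positions, and the 5 differing positions are in capitals below, since these letters are what separates a read of Nfic from a read of Nfix in this stretch.
Nfic, chr10:81420654-81420753, minus strand: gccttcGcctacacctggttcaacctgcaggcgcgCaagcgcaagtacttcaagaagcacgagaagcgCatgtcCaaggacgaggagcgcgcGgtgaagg
Nfix, chr8:84772171-84772270, minus strand: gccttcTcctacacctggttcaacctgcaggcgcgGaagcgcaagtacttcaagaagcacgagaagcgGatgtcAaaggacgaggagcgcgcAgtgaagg

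The longest run of identical bases between any pair of members was 32 bases over all annotated transcripts, again between Nfic and Nfix, against reads of 100 bases per end and a mapping quality over 30 required by the authors. No pair shared an identical run as long as a read. Genes that overlap the members had few counts: the largest was 96 for G430095P16Rik within Nfix, which shares 137 exon bases with it on the other strand, followed by 27 for Gm16104, which shares 72 exon bases with Nfic. E130114P18Rik reached 20 counts beside Nfia, and the 5 genes inside Nfib reached 10 counts at most. The strand setting of the counting is not given in the sources used here, so reads of a member and of an opposite-strand neighbour cannot be told apart where their exons overlap.

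The 6 libraries had between 21608680 and 34774066 counts, with trimmed mean of M-values (TMM) factors from 0.908 to 1.13, and the smallest count of any member was 241. All 11 mesenchymal markers, such as Col1a1, Vim and Pdgfra, exceeded 1 CPM (counts scaled to a library of 1000000) in every library. Markers of other cell types were fewer: 1 of 5 epithelial genes passed 1 CPM in any library (Cdh1, up to 8.95 CPM, summed list 0.203 to 9.14 CPM), 1 of 4 blood genes (Cd68, up to 7.58 CPM, summed 1.36 to 7.70 CPM), 1 of 4 endothelial genes (Tek, up to 25.2 CPM, summed 2.76 to 25.4 CPM) and 2 of 4 glial genes (S100b, up to 14.4 CPM, and Aldh1l1, up to 1.41 CPM, summed 1.39 to 16.8 CPM). Of these lists, Epcam, Krt18, Ptprc, Adgre1, Cdh5, Kdr and Aqp4 had at most 3 counts in each library. The summed level of 10 proliferation markers was 1913 to 2719 CPM at day 0 and 247 to 356 CPM at day 7. The summed level of 10 osteoblast markers was 1559 CPM in shControl at day 7 and between 256 and 364 CPM in the other libraries. Spp1, at 1381 CPM, made up most of the shControl sum at day 7, and Runx2 was 117 CPM there against 30.4 to 35.3 CPM in the other libraries. Alpl reached 7.27 CPM and Phex 8.25 CPM, both in shNFIB at day 7, and Ifitm5 reached 2.59 CPM in shControl at day 7. Phex was lowest in shControl at day 7, at 0.82 CPM. Ibsp had at most 3 counts in every library and Sp7 was at or below 0.23 CPM. The summed level of 10 adipocyte markers was 264 CPM in shControl at day 7 and between 32.3 and 76.3 CPM elsewhere. In shControl at day 7 Cfd was 69.8 CPM, Lpl 35.6, Cidec 22.3 and Plin1 15.5 CPM, each under 2 CPM in the other libraries, whereas Adipoq had at most 3 counts in every library. These markers differ along with the comparisons below, and their part in the NFI values was not tested. In RNA from whole cultures, fewer cells of a kind and less RNA per cell cannot be told apart.

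The targeted gene Nfib was lowest in the shNFIB line on both days. At day 0 its TMM-scaled level was 116 CPM in shControl but 35.3 CPM in shNFIB. At day 7 the levels were 83.5 CPM in shControl but 8.15 CPM in shNFIB. In the shMLL1 line it was 65.5 CPM at day 0 and 72.7 CPM at day 7. Both shNFIB libraries lie below the other 4 libraries. Nfib was thus 3.29-fold lower in shNFIB than in shControl at day 0 (log2 fold change -1.72, with a 95% interval of -1.82 to -1.62) and 10.2-fold lower at day 7 (log2 fold change -3.36, -3.55 to -3.17). These intervals are exact Clopper-Pearson intervals on the counts of both libraries, so they cover counting error only, and a pair of single libraries has no replicate check.

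**Figure D1:**
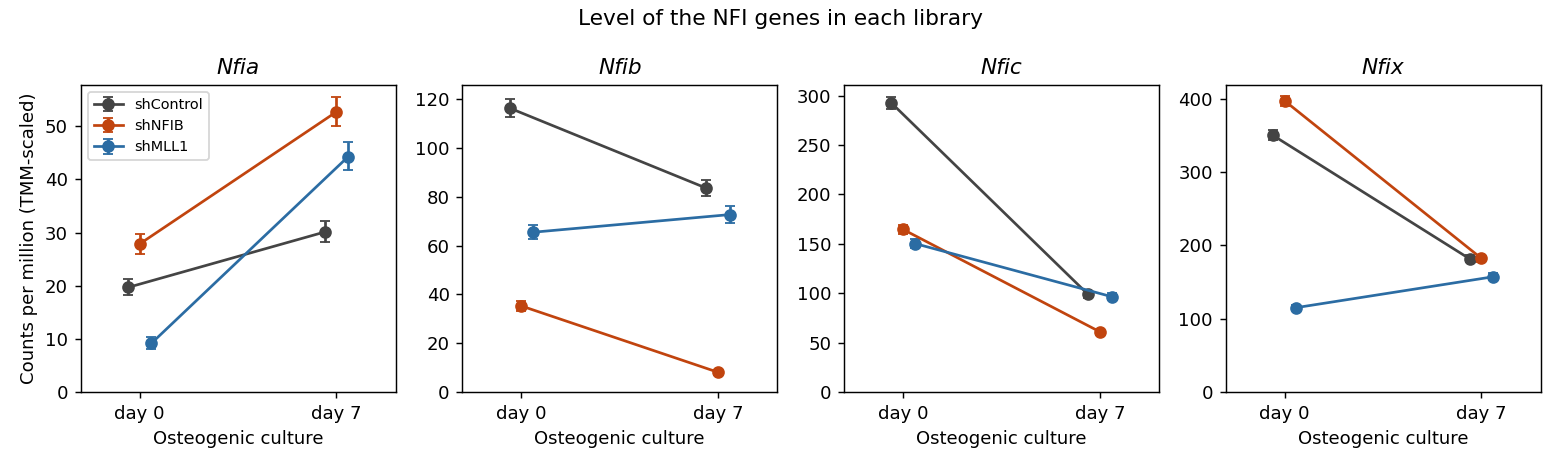
TMM-scaled level in CPM (y axis, from 0) of Nfia, Nfib, Nfic and Nfix in the 6 libraries, by day (x axis) and line (color). Points are single libraries, bars are 95% Poisson counting intervals, and lines join the libraries of a line. Nfia was higher at day 7 in every line, Nfic was lower in every line, and Nfib and Nfix were lower at day 7 in shControl and shNFIB but higher in shMLL1.

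Nfix had the highest level of the family in 5 of the 6 libraries. At day 0 it stood at 350.0 CPM in shControl, and shNFIB had 397 CPM, while at day 7 each of these lines had 182 CPM. In shMLL1 it stood at 115 CPM at day 0 and 157 CPM at day 7. Day 0 of shMLL1 was the lowest of the 6 libraries, whereas day 0 of the other lines gave the highest values.

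Nfic, known for its role in tooth root and bone formation, was 293 CPM in shControl, 165 CPM in shNFIB and 150 CPM in shMLL1 at day 0. At day 7 it was 99.0 CPM in shControl, 61.2 CPM in shNFIB and 96.7 CPM in shMLL1. Every day 7 library lay below every day 0 library.

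Nfia, known as a factor of glial and blood cell fate, was the least abundant member in CPM in 5 libraries. It measured 19.7 CPM in shControl, 27.9 CPM in shNFIB and 9.21 CPM in shMLL1 at day 0. At day 7 it measured 30.1 CPM in shControl, 52.7 CPM in shNFIB and 44.3 CPM in shMLL1. Every day 7 library lay above every day 0 library, and on both days shNFIB was the highest line.

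Because the exon lengths differ, levels were compared between members as CPM per kb of exon. In shControl at day 0 the order was Nfix at 47.6, Nfic at 44.2, Nfib at 7.78 and Nfia at 1.81 CPM per kb. Nfix exceeded Nfic there by 1.08-fold (95% counting interval 1.05 to 1.11), the closest pair in that library. The ratio depends on the length used, which the interval does not cover. Per kb of the longest transcript, Nfix held 50.9% of the summed family level there and Nfic 37.4%. At day 7 of shControl the order was the same, with Nfix at 24.7, Nfic at 14.9, Nfib at 5.58 and Nfia at 2.76 CPM per kb. In shNFIB Nfib was last of the 4 by this measure. At day 0 Nfib was at 2.36 and Nfia at 2.56 CPM per kb. The ratio of Nfia to Nfib was 1.08, and its counting interval, 0.992 to 1.18, includes equality. Per kb of the longest transcript the order there was reversed, with Nfia at 2.77% and Nfib at 3.67% of the summed family level. At day 7 Nfia exceeded Nfib by 8.88-fold per kb of exon (7.75 to 10.2). In shMLL1 at day 0, Nfic at 22.7 CPM per kb exceeded Nfix at 15.7 CPM per kb by 1.45-fold (1.38 to 1.51), the only library with Nfic first. Per kb of the longest transcript Nfic was also first there, with 45.2% against 39.5% for Nfix. In shMLL1 at day 7 Nfib exceeded Nfia by 1.19-fold (1.11 to 1.29), against 5.18-fold (4.56 to 5.87) at day 0. There is no replicate of any library, so whether these orders exceed the spread between cultures was not tested.

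**Figure D2:**
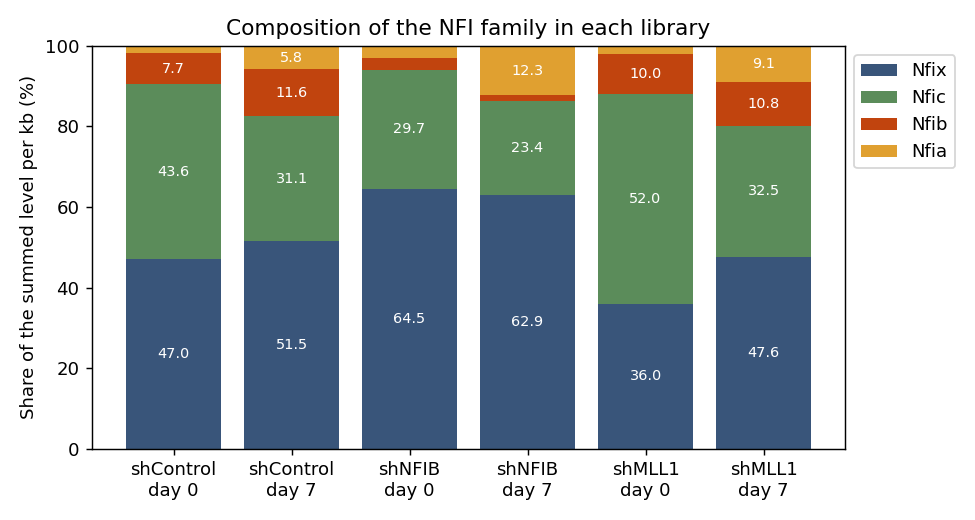
Share of each member in the summed level per kb of the family (y axis, %, stacked to 100) in the 6 libraries (x axis). The Nfib share was 7.67 and 11.6% in shControl, 2.82 and 1.38% in shNFIB, and 10.0 and 10.8% in shMLL1, at day 0 and day 7 respectively.

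A share within a library does not depend on the scaling between libraries. The Nfib share of the summed level per kb was 7.67% in shControl and 2.82% in shNFIB at day 0, and 11.6% and 1.38% at day 7. In shMLL1 it was 10.0% and 10.8%, close to the day 7 share of shControl. The share of Nfix was 64.5% and 62.9% in shNFIB, above the 47.0% and 51.5% of shControl. The share of Nfia was higher at day 7 in each line, going from 1.78 to 5.76% in shControl, from 3.06 to 12.3% in shNFIB and from 1.94 to 9.06% in shMLL1. The share of Nfic was lower at day 7 in each line, going from 43.6 to 31.1%, from 29.7 to 23.4% and from 52.0 to 32.5%. Of the counts themselves, Nfib held 14.9% of the family in shControl at day 0 (14.5 to 15.4, exact binomial) and 2.68% in shNFIB at day 7 (2.36 to 3.03).

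The 4 genes together held 779 CPM in shControl, 625 CPM in shNFIB and 340 CPM in shMLL1 at day 0. At day 7 they held 394, 304 and 371 CPM in the same order. The sum was lower at day 7 in shControl and shNFIB and slightly higher in shMLL1, whose day 0 library had less than either of the other day 0 libraries.

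Over 7 days of osteogenic culture, Nfia rose and Nfic fell across the 3 lines. In the quasi-likelihood fit of edgeR over the 6 libraries, with line as a block, the log2 fold change of Nfia was 1.26 ± 0.32 (SE, 3 libraries a day), with an adjusted p of 0.0254, and that of Nfic was -1.21 ± 0.24, with an adjusted p of 0.0103. The estimates for Nfib, -0.78 ± 0.40 with an adjusted p of 0.167, and Nfix, -0.54 ± 0.33 with an adjusted p of 0.226, did not pass. So 1 of the 4 members passed upward and 1 downward. A day change that differs between the lines counts as error in this fit. Over all 15741 genes tested, 17.7% passed upward and 17.0% downward, so a call in this comparison was common. Nfia was higher at day 7 in 3 of 3 lines and Nfic lower in 3 of 3 lines. When 1 library of a line is left out, the line term takes up its other library. The day estimate then rests on the remaining lines. Leaving out day 0 or day 7 of the same line is therefore nearly the same fit and not a separate check. Without the shMLL1 library of day 0 or day 7 the estimate of Nfia was 0.79 or 0.80, and it passed in both fits (adjusted p 0.0172 and 0.0204). Without the line as a block its call was lost (1.19, adjusted p 0.0543). The call of Nfic was lost without the shControl library of day 0 (-1.05, adjusted p 0.0625) or of day 7 (-1.01, adjusted p 0.0984). Without the shMLL1 library of day 0, Nfib (-1.25, adjusted p 0.0122) and Nfix (-1.01, adjusted p 0.00447) passed as lower, and without that of day 7 they did too (-1.24 with an adjusted p of 0.0202 and -1.0 with an adjusted p of 0.00716).

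**Figure D3:**
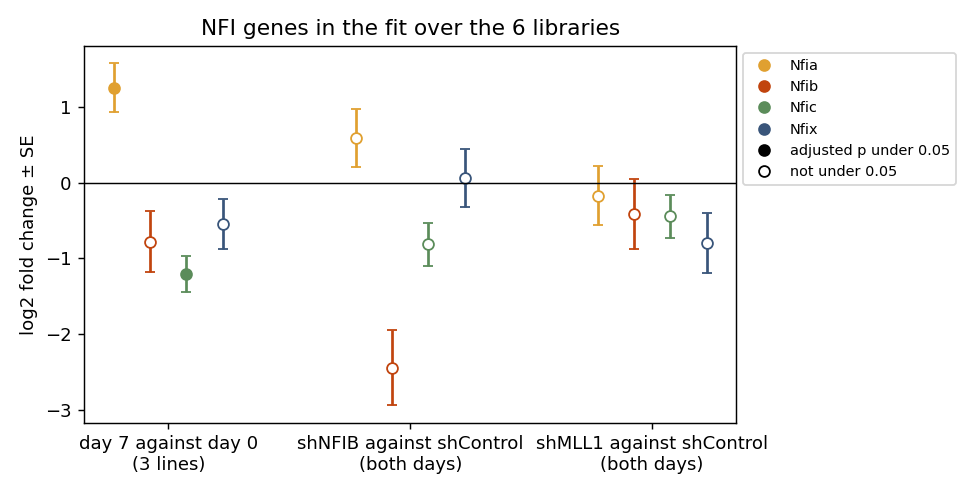
log2 fold change with its SE (y axis) of the 4 members in the 3 comparisons of the edgeR quasi-likelihood fit over the 6 libraries (x axis). Filled points have an adjusted p under 0.05, which holds for Nfia and Nfic between days. The lowest estimate is that of Nfib in shNFIB, at -2.44.

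Within each line the day comparison rests on a pair of libraries, and a member is counted when the TMM-scaled counts differ by over 2-fold. In shControl, 1 of 4 members was over 2-fold lower at day 7, Nfic at -1.56 (-1.62 to -1.51) on the log2 scale, against 14.8% of the 15845 genes with a mean of at least 10 counts, and none was over 2-fold higher, against 20.2%. Nfix came close at -0.95 (-0.99 to -0.90), Nfib was at -0.48 (-0.55 to -0.40) and Nfia at 0.61 (0.46 to 0.76). The median of the 4 was -0.71 and that of all genes -0.05.

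In shNFIB, 3 of 4 members were over 2-fold lower at day 7, against 13.2% of genes, and none over 2-fold higher, against 15.5%. These were Nfib at -2.11 (-2.32 to -1.91), Nfic at -1.43 (-1.51 to -1.35) and Nfix at -1.12 (-1.17 to -1.08). Nfia was at 0.92 (0.80 to 1.04) and crossed 2-fold, at 1.02, when libraries were scaled by their size alone. The median of the members was -1.28 and that of all genes -0.03.

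In shMLL1, 1 of 4 members was over 2-fold higher, Nfia at 2.27 (2.07 to 2.46), against 23.5% of genes, and none was over 2-fold lower, against 18.9%. Nfic was at -0.64 (-0.71 to -0.57), while Nfib at 0.15 (0.06 to 0.24) and Nfix at 0.45 (0.38 to 0.51) were higher at day 7 than at day 0. The median of the members was 0.30 and that of all genes 0.01.

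**Figure D4:**
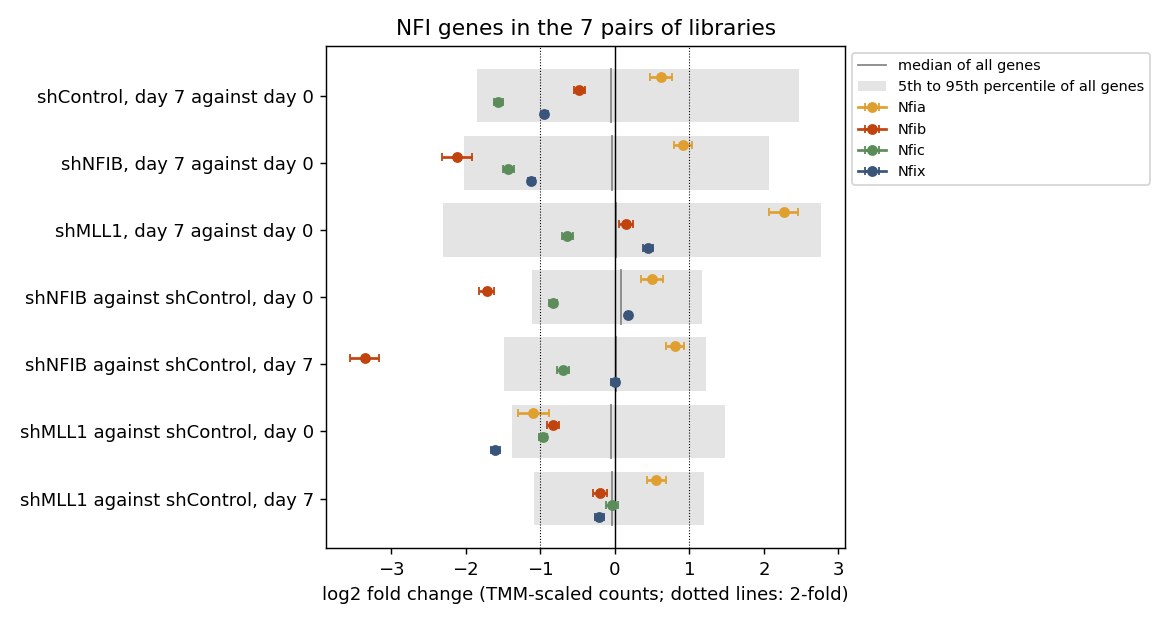
log2 fold change (x axis) of the 4 members in the 7 pairs of libraries (rows), with 95% counting intervals as bars and dotted lines at 2-fold. Grey bands run from the 5th to the 95th percentile of genes with a mean of at least 10 counts and grey ticks mark their median. Nfib lies below the band in both comparisons of shNFIB with shControl, at -1.72 and -3.36, and between days in shNFIB, at -2.11 with the band starting at -2.02, and Nfix in that of shMLL1 with shControl at day 0, at -1.60.

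The day change of each knockdown line was also set against that of shControl. For shNFIB the difference on the log2 scale was -1.64 (95% counting interval -1.85 to -1.42) in Nfib, -0.18 (-0.24 to -0.11) in Nfix, 0.13 (0.04 to 0.23) in Nfic and 0.31 (0.12 to 0.50) in Nfia. For shMLL1 it was 0.63 (0.51 to 0.75) in Nfib, 1.39 (1.31 to 1.48) in Nfix, 0.93 (0.83 to 1.02) in Nfic and 1.65 (1.41 to 1.89) in Nfia. When the day change of a line was tested against that of the other lines in the quasi-likelihood fit, which leaves 1 residual degree of freedom, no member passed. In shMLL1 the differences were 1.42 ± 0.37 for Nfia (unadjusted p 0.00431, adjusted p 0.168), 1.40 ± 0.36 for Nfix (0.00392, adjusted p 0.167), 1.34 ± 0.58 for Nfib (0.0448, adjusted p 0.334) and 0.78 ± 0.35 for Nfic (0.0542, adjusted p 0.358). That fit of edgeR called 67 genes (0.426%), with 2253 of 15741 genes at an unadjusted p under 0.05. For shNFIB the difference of Nfib was -1.89 ± 0.48 (unadjusted p 0.00474, adjusted p 0.659), in a fit that called 0 genes (0%), with 656 genes at an unadjusted p under 0.05. Another tool was not run for this term.

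Against shControl over both days, the estimate for Nfib in shNFIB was the largest of the family at -2.44 ± 0.50 (2 libraries a side), but its adjusted p in the edgeR fit was 0.140 (unadjusted p 0.00185). Its larger drop at day 7 than at day 0 counts as error in this fit. Nfic was at -0.81 ± 0.28 (adjusted p 0.331), Nfia at 0.59 ± 0.38 (0.581) and Nfix at 0.06 ± 0.39 (0.969), so 0 of 4 members passed, against 0.0826% of genes upward and 0.210% downward. With all genes that had at least 1 count, the adjusted p of Nfib was 6.26e-05, and by the Wald test of DESeq2 it was 0.000141. In edgeR it was 0.142 with the size factors of DESeq2, 0.150 with library size alone and 0.99995 without the day term, so the call depended on the setting. Nfic passed only without day 0 of shMLL1 (-0.77, adjusted p 0.0494). Leaving out a single library gave adjusted p-values for Nfib between 0.00113, without day 0 of shMLL1, and 0.413, without day 7 of shControl. It was 0.144, with a log2 fold change of -1.60, without day 7 of shNFIB, 0.00357 without day 7 of shMLL1 and 0.0230, with a log2 fold change of -3.52, without day 0 of shNFIB. Nfib was lower in shNFIB on 2 of 2 days, and its estimate was negative in all 12 alternatives.

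By pairs, shNFIB against shControl at day 0 had 1 of 4 members over 2-fold lower, Nfib, against 6.13% of genes, and none over 2-fold higher, against 7.11%. Nfic was at -0.83 (-0.88 to -0.78), Nfia at 0.50 (0.35 to 0.65) and Nfix at 0.18 (0.14 to 0.22). At day 7 Nfib was again the only member over 2-fold lower, against 11.0% of genes, and none was over 2-fold higher, against 7.58%. Nfic was at -0.70 (-0.78 to -0.61) and Nfia at 0.81 (0.69 to 0.93) there, the same side as at day 0. Nfix was at 0.00 (-0.05 to 0.06), an interval that includes no difference, and it was on the negative side with the size factors of DESeq2 (-0.03), with library size alone (-0.10) or with TMM over protein-coding genes (-0.04).

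In shMLL1 against shControl over both days, 0 of 4 members passed, against 0.0127% of genes upward and 0.0191% downward. The estimates were -0.80 ± 0.40 for Nfix (adjusted p 0.621), -0.44 ± 0.28 for Nfic (0.704), -0.41 ± 0.47 for Nfib (0.845) and -0.17 ± 0.39 for Nfia (0.937). Without day 7 of shMLL1, Nfix passed at -1.57 (adjusted p 0.0228). These values average 2 days that differ in the pairs. At day 0 all 4 members were lower in shMLL1: Nfix at -1.60 (-1.66 to -1.55), Nfia at -1.10 (-1.30 to -0.89), Nfic at -0.96 (-1.01 to -0.91) and Nfib at -0.83 (-0.91 to -0.75). Nfix and Nfia, 2 of 4, were over 2-fold lower, against 9.38% of genes, and none was over 2-fold higher, against 9.30%. With TMM over protein-coding genes alone, Nfia fell just short of 2-fold (-1.0 after rounding) and was no longer counted.

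At day 7 no member was over 2-fold lower in shMLL1 than in shControl, against 6.06% of genes, or over 2-fold higher, against 6.72%. Nfix was at -0.21 (-0.27 to -0.15), Nfib at -0.20 (-0.29 to -0.11) and Nfia at 0.56 (0.43 to 0.69). Nfic was at -0.03 (-0.11 to 0.04), which counting error does not separate from no difference. The median of the members was -1.03 at day 0 and -0.12 at day 7, beside -0.05 and -0.04 over all genes. Both knockdown lines were compared with the same shControl libraries, so their values against it are not independent of each other.

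In 10194 genes no library had under 100 counts, and among these the ratio of the highest to the lowest library had a median of 2.17. It was 14.3 for Nfib, higher than in 98.2% of them, 5.72 for Nfia (92.9%), 4.79 for Nfic (90.1%) and 3.44 for Nfix (80.9%). Across the 6 libraries, which share lines and days, the log2 levels of Nfib and Nfic had a Pearson r of 0.68 and those of Nfic and Nfix 0.55, whereas Nfia and Nfic had -0.64 and Nfia and Nfib -0.51. These are descriptions over 6 points.

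The genes most like each member were taken as the 3 protein-coding genes of 9697 with the smallest root-mean-square (RMS) difference in centred log2 CPM over the 6 libraries. For Nfix they were Ddr1, a collagen receptor kinase (RMS 0.12), Kif13a, a kinesin motor (0.12), and Dpysl2, a microtubule-binding protein (0.14). For Nfia they were Cat, the catalase gene (0.14), Nrp1, a co-receptor of semaphorins and VEGF (0.14), and Egfr, the receptor of epidermal growth factor (0.15). For Nfic they were the drug transporter gene Abcb1b (0.17), Hccs, which attaches heme to cytochromes c (0.18), and the ubiquitin ligase gene Wwp2 (0.20). Nfib had no neighbour as close: Fbxl2 stood at 0.45, Cxadr at 0.57 and Greb1l at 0.65. All were lowest in shNFIB at day 7, as Nfib was, where Fbxl2 was at 5.18 CPM against 36.7 CPM in shControl. They were picked for likeness to Nfib over these same libraries, so that low value follows largely from the choice.

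Another 4 genes from a list, Kmt2a, Sox9, Kdm4d and Setdb1, were read beside the family. Kmt2a, the other targeted gene, was 74.7 CPM in shControl, 86.5 CPM in shNFIB and 30.9 CPM in shMLL1 at day 0, and 66.3, 94.0 and 34.8 CPM at day 7, so both shMLL1 libraries lay below the other 4. Its estimate in shMLL1 over both days was -1.06 ± 0.22 (adjusted p 0.173, edgeR). Sox9, a cartilage factor, was 187 CPM in shControl, 87.0 CPM in shNFIB and 68.9 CPM in shMLL1 at day 0, and 119, 88.8 and 96.3 CPM at day 7. Kdm4d, a histone demethylase, stayed at or below 0.57 CPM, too low for a comparison. Setdb1, a histone methyltransferase of the repressive H3K9 mark, ranged from 48.9 to 90.0 CPM. None of the 4 passed in edgeR between days (17.7% of all genes upward and 17.0% downward), in shNFIB (0.0826% and 0.210%) or in shMLL1 (0.0127% and 0.0191%). At an unadjusted p under 0.05 there were 0, 1 (Sox9) and 2 (Sox9 and Kmt2a), beside 7468, 1918 and 1416 of all 15741 genes. DESeq2 called 0 between days (16.1% of genes upward and 17.2% downward), 0 in shNFIB (1.70% and 1.79%) and 1, Kmt2a, in shMLL1 (0.982% and 1.35%).

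Of 20 genes known as bound by or responsive to NFI factors in various tissues, 14 could be tested. The other 6 had a mean under 10 counts, among them Dspp, Mmd2 and Mstn with 0 counts in every library. Between days, 2 of the 14 rose (14.3%, against 17.7% of all genes) and 5 fell (35.7%, against 17.0%), with a median log2 fold change of -0.69 beside -0.02 over all genes. The 2 that rose were Pparg, the adipocyte nuclear receptor (0.71 ± 0.18, adjusted p 0.0224), and Nfatc4, a calcium-responsive factor (0.85 ± 0.24, 0.0345). Those that fell were the glutamate transporter gene Slc1a3 (-2.19 ± 0.43, 0.0109), the pluripotency-associated factor Klf4 (-2.13 ± 0.44, 0.0122), the Polycomb methyltransferase gene Ezh2 (-1.62 ± 0.22, 0.00307), the Notch effector Hes1 (-1.29 ± 0.35, 0.0290) and the muscle enolase gene Eno3 (-0.76 ± 0.20, 0.0264). Between days DESeq2 called 9 of the 14, against 16.1% of genes upward and 17.2% downward. These included Dlx5 and Col1a2, which in edgeR were at 1.31 ± 0.47 (adjusted p 0.0667) and -1.04 ± 0.36 (adjusted p 0.0591). In edgeR 0 of the 14 passed in shNFIB over both days, where 0.0826% of genes passed upward and 0.210% downward, and 0 in shMLL1, where 0.0127% and 0.0191% did, so few calls were made over all genes. At an unadjusted p under 0.05 there were 6 in shNFIB, beside 1918 of all 15741 genes, and 5 in shMLL1, beside 1416. DESeq2 called 4 of the 14 in shNFIB (Pparg, Cebpa, Cdkn1a and Dlx5), against 1.70% of genes upward and 1.79% downward, and 4 in shMLL1 (Pparg, Cebpa, Eno3 and Apcdd1), against 0.982% and 1.35%.

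**Figure D5:**
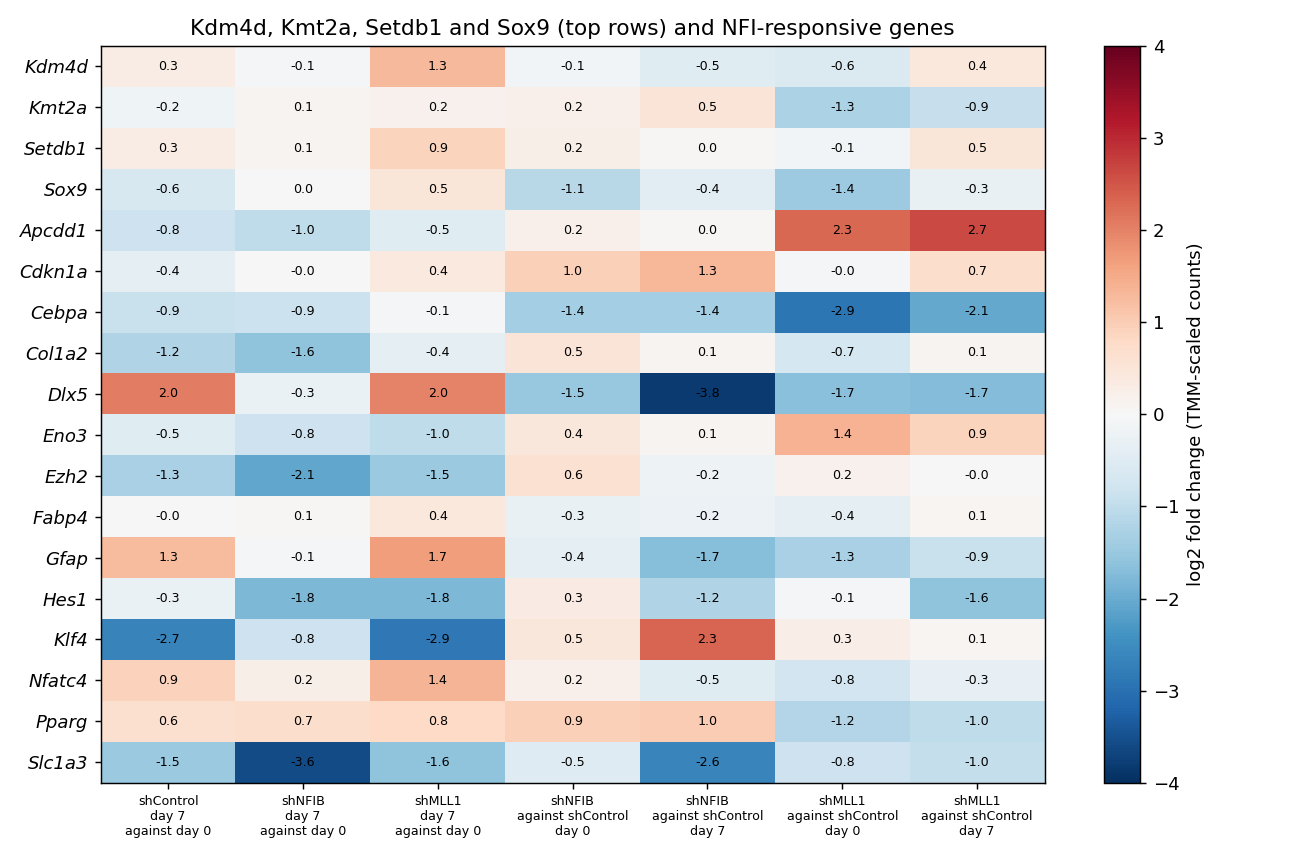
log2 fold change of TMM-scaled counts (color and printed value) for Kdm4d, Kmt2a, Setdb1 and Sox9 (top rows) and 14 NFI-responsive genes with a mean of at least 10 counts (rows) in the 7 pairs of libraries (columns). Dlx5 is lower in both knockdown lines than in shControl at both days, and Pparg is higher in shNFIB and lower in shMLL1.

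In shNFIB against shControl at day 7, 5 of the 14 responsive genes were over 2-fold lower (35.7%, against 11.0% of genes) and 3 over 2-fold higher (21.4%, against 7.58%). Dlx5, an osteogenic homeobox factor, was 52.5 CPM in shControl and 3.69 CPM in shNFIB, and Slc1a3 was 145 and 23.5 CPM. Cebpa, an adipogenic factor, was 10.3 and 4.03 CPM, and lower in both knockdown lines than in shControl at both days. Klf4 was higher in shNFIB, at 151 CPM against 30.2 CPM, and so were the cell cycle inhibitor gene Cdkn1a, at 396 against 159 CPM, and Pparg, at 84.2 against 42.0 CPM. In shMLL1 at day 7 Pparg was 20.9 CPM, below shControl, so the knockdown lines lay on opposite sides of shControl for this gene. At day 0, 2 of the 14 were over 2-fold lower in shNFIB (14.3%, against 6.13% of genes), Cebpa and Dlx5, and none over 2-fold higher. In shMLL1 against shControl, 4 of the 14 were over 2-fold lower (28.6%) and 2 over 2-fold higher (14.3%) at day 0, against 9.38% and 9.30% of genes, and 4 were lower and 1 (7.14%) higher at day 7, against 6.06% and 6.72%. Apcdd1, a membrane inhibitor of Wnt signaling, was higher at both days, with 7.29 CPM against 1.47 CPM and then 5.16 CPM against 0.82 CPM, and Eno3 was higher at day 0, with 72.5 CPM against 27.4 CPM. Cebpa, Dlx5 and Pparg were over 2-fold lower in shMLL1 on both days. Cebpa, Dlx5 and Pparg are also genes that the study itself took up, so their values are not independent evidence. The rest of these genes were chosen largely from knowledge of other tissues, and no test of the list was run.

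RefSeq promoter windows of 300 bases on GRCm38.p6 were held for 3 members: 1 window for Nfia, 1 for Nfic and 4 for Nfix. Their start sites lay 190791 bases from the nearest GENCODE start in Nfia, 0 in Nfic, and 14, 521, 1459 and 5713 bases in Nfix, so only some stand at an annotated start. TTGGC or its reverse complement was present in 3 of the 4 windows of Nfix and absent from those of Nfia and Nfic. In all 32851 windows examined, 46.7% held at least 1 copy. The full palindrome, with 5 bases between both arms, was in none of the 6 and in 12 of the windows examined. The windows examined did not cover every chromosome. Neighbouring genes were read as well: Zdhhc21, 93.0 kb from Nfib, had 37.7 CPM in the control line beside 40.4 CPM in shNFIB at day 0, and 21.9 beside 26.3 CPM at day 7. Mpdz, on the other side of Nfib, was at least 90.6 CPM in each library and lay 0.46 on the log2 scale above the control line in shNFIB on each day. Trmt1, on the other strand and 0.068 kb from the end of Nfix, had 58.8 CPM in the control line beside 72.8 CPM in shMLL1 at day 0, and 85.8 beside 80.4 CPM at day 7. Dand5, on its other side, had 5.89 beside 4.90 CPM at day 0 and 8.53 beside 7.25 CPM at day 7. Near Nfia, Tm2d1 ranged from 20.4 to 36.6 CPM, and near Nfic, Celf5 was at most 3.24 CPM and Smim24 at most 0.56 CPM.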

How the data were processed

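RNA-seq counts of 6 libraries, 1 for each line and day, were used. Reads were trimmed by the authors (Trimmomatic 0.39) before alignment to mm10 (HISAT2 2.2.1) and filtering for a mapping quality over 30 and for PCR duplicates (SAMtools 1.12). The authors deposited raw counts per Ensembl gene from htseq-count 0.11.1, without normalization. The annotation release is not given in the sources used here. Symbols, exon lengths and coding sequences came from GENCODE M21 (GRCm38), which held 55141 of the 55401 identifiers.

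Counts were scaled by TMM. Pairs of libraries were compared by their ratio with an exact 95% interval, with no p-value, and counted past 2-fold among genes with a mean of at least 10 counts. Models of line plus day were fitted in edgeR 4.0.16 (R 4.3.3; quasi-likelihood, filterByExpr, Benjamini-Hochberg over all genes tested, called under 0.05, 2 residual degrees of freedom), with DESeq2 1.42.0 as an alternative. Nothing in the labels says that lines were cultured more than once. The error in these fits is how far the day change differs between the lines. The p-values and SEs therefore measure that spread, not the spread between repeated cultures. The fits were tested on simulated counts with 200 genes changed by 2 on the log2 scale at a biological coefficient of variation of 0.2: 200 were called between days (8 unchanged genes also called, of 16046 tested), 197 in shNFIB (7, of 15988) and 199 in shMLL1 (9, of 15995). The coefficient estimated in the data was 0.277, and the simulated lines had no differences that depend on the day. These counts therefore do not give the power of the fits on the data. The line pairs the libraries of both days, since each pair comes from the same cells: deviations from the day means correlated at 0.43 in shControl, 0.43 in shNFIB and 0.27 in shMLL1 across genes. Intervals were made with scipy 1.17.1 and alignments with MAFFT 7.526. Each condition had 1 library, so intervals cover counting error only.

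The named genes were the 4 members, Kmt2a, Kdm4d, Setdb1 and Sox9, 20 NFI-responsive genes, overlapping and nearest protein-coding genes, and for each member the 3 genes with the most similar levels. The members and lists were chosen with earlier results of these data known. ChIP-seq and adipogenic samples of the study were not analysed here.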

Additional observations from a re-analysis of the deposited data

Results flagged for a closer look

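The day change of Nfix and of Nfib went opposite ways between lines, beyond the counting intervals. Nfix was lower at day 7 in shControl (-0.95 on the log2 scale) and shNFIB (-1.12) and higher in shMLL1 (0.45). Nfib was lower at day 7 in shControl (-0.48) and shNFIB (-2.11) and higher in shMLL1 (0.15). Each value rests on 1 library a day. Tested in edgeR as the day response of shMLL1 against that of the other lines, a test chosen after seeing the data, the difference was 1.40 for Nfix (adjusted p 0.167) and 1.34 for Nfib (adjusted p 0.334), so neither passed. The day 0 library of shMLL1 had the lowest Nfix level of the 6 libraries, and at day 7 the 3 lines were within 157 to 182 CPM for Nfix.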

How the results depend on the processing

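With 1 library per condition, no setting replaces a missing culture. The largest shift of a pair's log2 fold change of a member over the scalings, the prior count of 2 and thinning was 0.21, with library size alone in the day pair of shMLL1, where Nfib was 0.36 in place of 0.15. The same setting gave Nfib in shNFIB against shControl at day 0 as -1.83 in place of -1.72. The Nfib shares of the family as a percentage of counts, at day 0 and then day 7, were 14.9 and 21.2% for shControl, 5.65 and 2.68% for shNFIB, 19.2 and 19.6% for shMLL1. By the longest transcript they were 10.2 and 14.9%, 3.67 and 1.81%, and 13.5 and 14.0%. The shNFIB shares stayed lowest in all 3 measures. With a mean of at least 100 counts, fewer genes were past 2-fold: 11.0, 8.90 and 15.4% higher at day 7 in shControl, shNFIB and shMLL1, 3.32% higher and 3.12% lower in shNFIB at day 0, 5.28% lower in shNFIB at day 7, 4.24% higher in shMLL1 at day 0, and 2.93% higher and 3.59% lower in shMLL1 at day 7.

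Counts of genes called in the knockdown comparisons depended on the setting, and the cause was not tested. For shNFIB, 13 higher and 33 lower became 341 and 347 with all genes of at least 1 count, 292 and 308 with the Wald test of DESeq2, and 291 and 302 in the 4 libraries compared. For shMLL1, 2 and 3 became 236 and 290, 169 and 232, and 90 and 109. Without the replicate block (day as a term), edgeR called 0 genes higher and 0 lower in each, with 171 and 222 genes at an unadjusted p under 0.05 for shNFIB and 136 and 155 for shMLL1, and Nfia in shMLL1 changed sign to 0.13. Without the line as a replicate block, the day change of Nfia was 1.19 (adjusted p 0.0543) and that of Nfic -1.23 (adjusted p 0.0301).

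Leaving out a library in turn gave between 1054 and 2711 genes higher and between 1029 and 2730 lower over days. It gave between 1 and 523 higher and 14 and 425 lower in shNFIB, and between 0 and 318 higher and 1 and 308 lower in shMLL1. The smallest counts were those without day 7 of shControl, where edgeR had 431 genes higher in shMLL1 at an unadjusted p under 0.05. The largest were without day 0 of shMLL1 for the days and shNFIB, and without day 7 of shMLL1 for shMLL1. Without day 0 of shControl the day counts were 1357 and 1308, and every library moved the counts of a knockdown comparison by over 1.5 times. The Nfix estimate in shNFIB ranged from -0.38 to 0.46, and in shMLL1 Nfia ranged from -0.94 to 0.50 and Nfib from -1.20 to 0.17, each with both signs.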
